A study of Mus musculus with 9 samples.

Results

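Expression of 48 genes of the Notch and Hedgehog pathways was examined in cultured mouse tracheal myoepithelial cells that overexpressed the transcription factor Lef1. The genes were chosen by a rule on their symbols, as receptors, ligands, processing enzymes, nuclear factors and direct targets. No expression value is part of that rule, but it was set with earlier results of these data known. Of 64 protein-coding genes of the GENCODE M21 annotation that match the symbol rule, 48 are among the 13336 genes of the deposited table, 33 of the Notch pathway and 15 of the Hedgehog pathway. The other 16, among them Hey1, Heyl, Notch4, Dll4, Shh and Ihh, were not analysed here.

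The series asks what forced Lef1 expression does to culture-expanded myoepithelial cells, the contractile basal-type cells that surround airway glands. The group called Lef1KI (5 libraries) came from ACTA2-CreERT2:Lef-1KI+/+ mice, in which a Cre recombinase driven by the smooth muscle actin gene Acta2 and activated by tamoxifen acts on a Lef-1 knock-in allele. The group called WT (4 libraries) came from ACTA2-CreERT2:ROSA-TG mice and so carried the same Cre. Mice of both groups received tamoxifen on each of 5 days, each library is a pool of 3 to 5 mice, and no source used here gives an age, sex or genetic background. Both groups were grown to passage 1 in airway medium with Y-27632 (10 µM) and with DMH-1 (a BMP receptor inhibitor), A83-01 (a TGF-beta receptor inhibitor) and CHIR 99021 (a GSK3 inhibitor that activates Wnt signalling), each at 1 µM. Cells were then sorted as GFP- from Lef1KI and as GFP+ from WT cultures, so the gate and the genotype cannot be told apart. Libraries carry the letters A to E in Lef1KI and A, B, D and E in WT.

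In the Notch pathway a Delta or Jagged ligand on one cell binds a Notch receptor on its neighbour. Endocytosis of the ligand exposes the receptor to an ADAM protease and then to the gamma-secretase complex, and the freed intracellular domain joins the DNA-binding protein Rbpj and a Mastermind coactivator in the nucleus to switch on genes such as Hes1 and Nrarp. In the Hedgehog pathway a secreted ligand binds Ptch1, which releases Smo, and Smo acts through Sufu and the primary cilium on the Gli transcription factors, which drive Gli1, Ptch1 and Hhip. Notch signalling is known in the airway for directing basal cells between secretory and ciliated fates, and Hedgehog signalling for passing between the epithelium and the stroma beneath it.

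Values are TPM, a length-corrected share of all transcripts, and differences are Lef1KI minus WT in mean log2(TPM + 1) with their standard error (SE), which understate the change of genes near 0 TPM. A gene was called changed at an adjusted p under 0.05 in limma, with Benjamini-Hochberg adjustment over all 13336 genes. The targeted gene, Lef1, measured 210.12, 311.51, 308.80, 139.33 and 166.22 TPM in Lef1KI libraries A to E and 0.55, 0.46, 0.38 and 0.40 TPM in WT libraries A, B, D and E (log2 difference 7.23, SE 0.24, limma adjusted p = 5.20e-08). The labelled cell type was checked on 13 basal and myoepithelial markers. Of these, 11 are in the table, where 1 rose (Mylk) and 1 fell (Ngfr). Their summed level was 16772 to 18625 TPM in Lef1KI and 13297 to 20009 TPM in WT. Most of it was Krt5 (5307.74 to 10539.92 TPM over all libraries) and Krt14 (5815.07 to 7714.57 TPM). The sum therefore says little about the contractile markers. Myh11 averaged 0.742 TPM in Lef1KI and 0.838 TPM in WT, Tagln 6.84 and 4.95 TPM, and Mylk 2.55 and 1.16 TPM. The groups of Mylk overlapped, and its call held in 2 of 9 fits that left out 1 library. It was lost after median centring and trimmed-mean scaling (limma adjusted p = 0.108 and 0.0811). The call of Ngfr held in 5 of 9 such fits and under both scalings (limma adjusted p = 0.0285 and 0.0274). Acta2 measured 30.12 to 106.07 TPM in Lef1KI and 83.23 to 175.87 TPM in WT (log2 difference -1.13, SE 0.36, limma adjusted p = 0.0834). All 18 fibroblast markers are in the table. Of these, 15 rose (83.3%, against 6.73% of all genes) and none fell. Their summed level was 1706 to 4639 TPM in Lef1KI and 430.1 to 1212 TPM in WT. Mgp alone measured 1167.78 to 3160.71 TPM in Lef1KI and 295.88 to 898.07 TPM in WT. Of 16 endothelial markers 10 are in the table and 7 of them rose (70.0%). Their summed levels were 32.8 to 84.8 TPM in Lef1KI and 11.2 to 17.4 TPM in WT. The levels of endothelial markers outside the table are unknown. From the values, the table keeps genes whose mean log2(TPM + 1) is at least 3 SD in at least 1 group. Cdh5, Kdr, Emcn and Plvap met this only in Lef1KI, where they were higher. The count of risen endothelial markers therefore rests in part on that filter. Of the other markers in the table, 2 of 5 leukocyte markers rose (40.0%), Lyz2 and Coro1a. Both met the 3 SD rule only in Lef1KI, where they were higher. Coro1a lost its call after median centring (limma adjusted p = 0.174). The summed leukocyte level was 58.6 to 244 TPM in Lef1KI and 111 to 259.6 TPM in WT. Most of it was Cd68, with a log2 difference of -1.18 (SE 0.44, limma adjusted p = 0.136). Of 3 ciliated markers 1 fell (33.3%, against 1.24% of all genes). None was called among 7 luminal, 3 Schwann and glial and 3 cartilage markers. All 7 luminal differences were negative, with a median of -0.38. The part of these cell types in the results that follow was not tested, and in sorted bulk RNA fewer cells of a type and less RNA per cell cannot be told apart.

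The sequences of Rbpj and its copy are given first, because reads can be shared between them. Rbpj, the DNA-binding core of the Notch nuclear complex (ENSMUSG00000039191, mm10 chromosome 5 from 53466152 to 53657362, plus strand), has a row of its own. A processed pseudogene of it, deposited as Rbpsuh-rs3 (ENSMUSG00000079575) and named Rbpj-ps3 in GENCODE, lies on chromosome 6 from 46529354 to 46530794 on the minus strand. Over its whole 1441 bases the copy matched bases 138 to 1578 of the Rbpj-201 coding sequence, with 4 differences and no gap (99.7% identity). The differences, counted from the first base of the Rbpj-201 coding sequence and given as the Rbpj base, the position and the copy's base, are T447C, C1086A, G1089A and A1225C. The stretches of the GENCODE M21 transcripts around them are shown 5′ to 3′ because within the matched stretch only these bases tell a read of one gene from a read of the other. Capitals mark the differing bases.

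Rbpj 422 to 472: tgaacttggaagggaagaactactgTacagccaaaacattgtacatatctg
copy 285 to 335: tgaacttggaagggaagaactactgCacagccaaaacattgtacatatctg
Rbpj 1061 to 1114: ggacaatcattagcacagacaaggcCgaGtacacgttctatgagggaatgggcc
copy 924 to 977: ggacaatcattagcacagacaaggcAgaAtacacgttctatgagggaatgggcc
Rbpj 1200 to 1250: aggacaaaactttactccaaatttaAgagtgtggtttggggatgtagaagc
copy 1063 to 1113: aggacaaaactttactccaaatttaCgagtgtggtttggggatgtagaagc

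Of all 50-base windows of the copy, 89.0% occur letter for letter in a Rbpj transcript, and of all 100-base windows 77.4% do. No source used here gives the read length.

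Promoters were searched for short core motifs because both groups of genes end in DNA-bound factors. RefSeq starts on GRCm38.p6 were found for 41 of the 48 genes, and the 250 bases before each start were read on both strands. The Rbpj core GTGGGAA was in 4 of the 41 (9.76%, against 6.18% of all 27025 genes with a start), namely Gpr161, Lfng, Mamld1 and Psen2. The Gli core ACCACCCA was in Lfng and Nrarp (4.88% of the 41, against 1.49% of all). The Lef/Tcf core CTTTGAT was in Disp1 and Maml1 (4.88%, against 3.72%) and CTTTGTT in Maml3 (2.44%, against 5.77%). These are letter matches only. The window of Mamld1, one of the 2 genes called below, is shown 5′ to 3′ on the plus strand of chrX:71050006-71050255, with the Rbpj core in capitals.

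Mamld1: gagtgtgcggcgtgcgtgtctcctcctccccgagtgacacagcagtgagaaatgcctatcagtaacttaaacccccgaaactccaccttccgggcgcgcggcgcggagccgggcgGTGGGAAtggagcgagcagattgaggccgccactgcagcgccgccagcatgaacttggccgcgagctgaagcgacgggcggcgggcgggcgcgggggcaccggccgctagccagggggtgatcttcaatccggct

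The plot of the differences by role shows all but 1 of the 48 genes. Of the 33 Notch genes 2 rose, Mamld1 and Dtx4, and none fell. None of the 15 Hedgehog genes passed the test. On the deposited scale an unadjusted limma p under 0.05 was found for 5 Hedgehog genes (33.3%) and 11 Notch genes (33.3%), against 23.8% of all genes. Together 2 of 48 genes (4.17%) were called, against 7.97% of all genes tested, 6.73% of them higher and 1.24% lower in Lef1KI. The median difference was 0.10 over the Notch genes and 0.24 over the Hedgehog genes, against 0.14 over all genes.

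**Figure D1:**
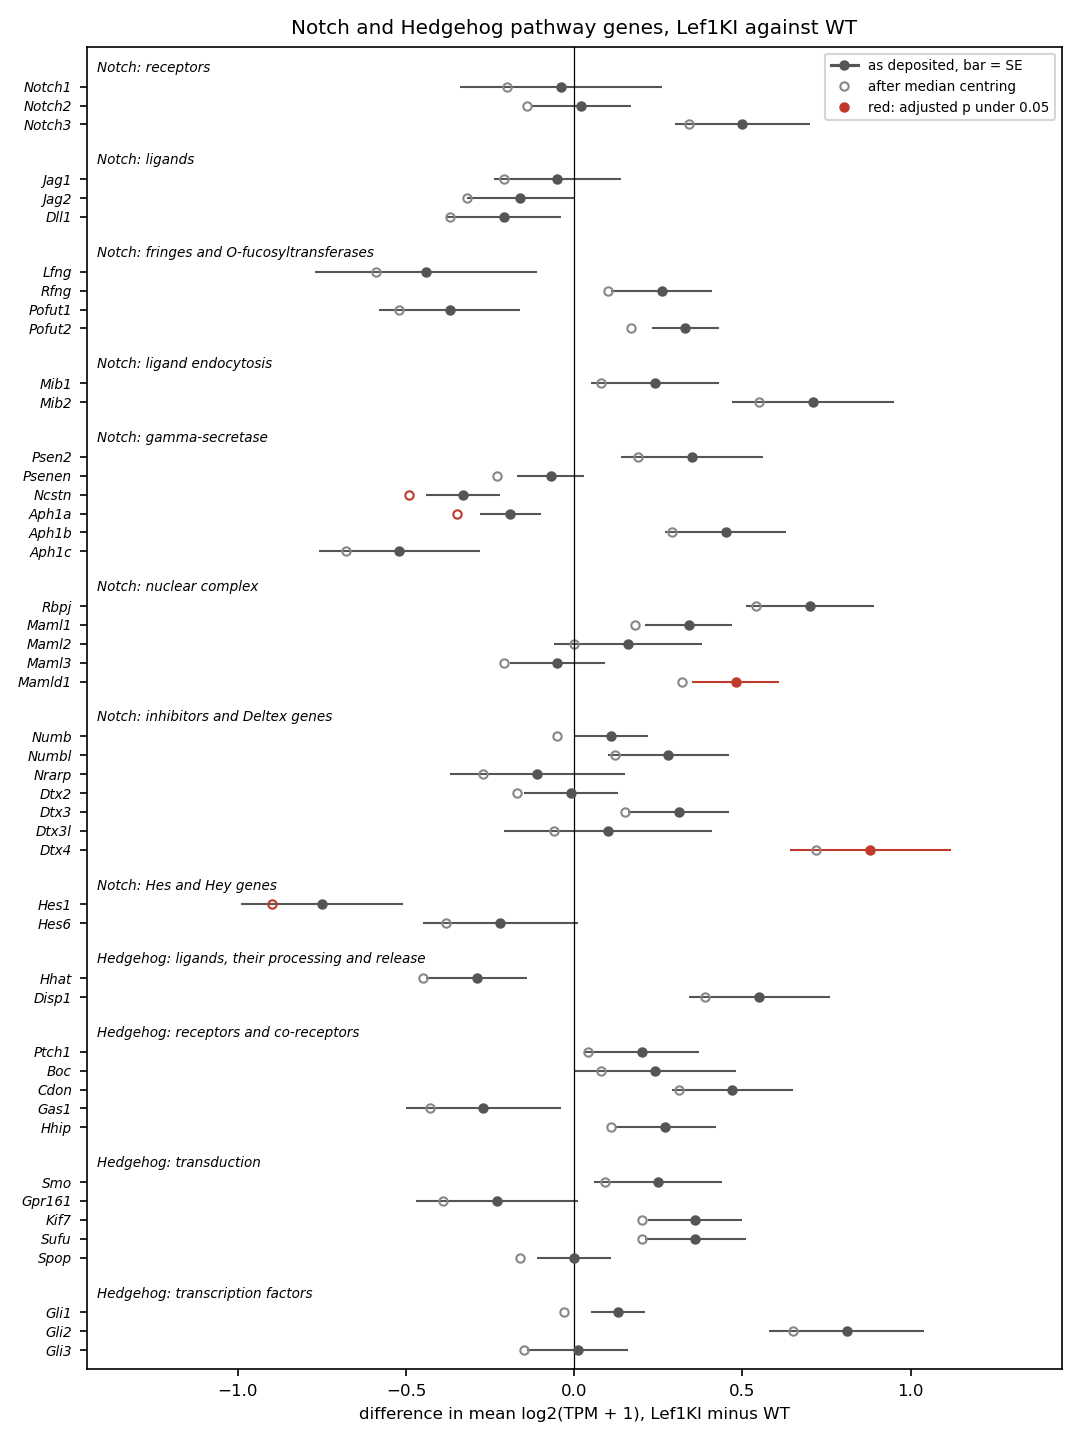
Difference in mean log2(TPM + 1), Lef1KI (n = 5) minus WT (n = 4), for the genes reported here, grouped by role. Filled points with SE bars use the deposited values and open points the values after median centring, red marks an adjusted p under 0.05, and centring moves every point to the left, so that Mamld1 and Dtx4 lose their calls while Ncstn, Aph1a and Hes1 gain one.

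Which genes were called depended on the scaling. When each library was centred on its own median, the median of all genes went from 0.14 to -0.02, none of the 48 genes was called higher (4.54% of all genes were) and 3 were called lower (2.49% of all genes were), Ncstn, Aph1a and Hes1. With a trimmed-mean scaling none was called higher (5.17% of all genes) and 2 lower (2.08% of all genes), Ncstn and Aph1a. No gene was called in the same direction under all 3 scalings. The shares with an unadjusted limma p under 0.05 also moved. After median centring they were 13.3% of Hedgehog and 27.3% of Notch genes, against 21.9% of all genes. After trimmed-mean scaling they were 20.0% and 27.3%, against 22.0%. Groups did not overlap at all for 7 of the 48 genes (14.6%, against 11.9% of all genes). Of these, 5 were higher in Lef1KI (Mamld1, Dtx4, Rbpj, Maml1 and Pofut2) and 2 lower (Ncstn and Aph1a). All 7 were among the 33 genes listed as Notch genes by symbol (21.2%), and none among the 15 Hedgehog genes.

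The 3 Notch receptors in the table did not pass the test. Notch1, the most abundant receptor, measured 344.42, 238.33, 103.92, 216.95 and 127.76 TPM in Lef1KI libraries A to E and 190.00, 223.00, 166.04 and 202.40 TPM in WT libraries A, B, D and E. The Lef1KI libraries spread over the whole WT range and past it on both sides, with means of 206 ± 96.0 TPM (SD, n = 5) and 195 ± 23.8 TPM (SD, n = 4), and the log2 difference was -0.04 (SE 0.30, limma adjusted p = 0.944). Notch2 lay between 10.87 and 15.72 TPM over all libraries (log2 difference 0.02, SE 0.15). Notch3, known for its role in vascular smooth muscle and in airway basal cells, measured 30.25, 28.34, 27.29, 33.32 and 20.89 TPM in Lef1KI and 13.13, 17.42, 25.79 and 23.43 TPM in WT. Only Lef1KI E fell within the WT range, and the log2 difference was 0.50 (SE 0.20, limma adjusted p = 0.170).

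None of the 3 ligands passed the test. Jag2 measured 120.64, 109.60, 92.64, 98.75 and 152.11 TPM in Lef1KI and 105.21, 136.12, 115.65 and 154.62 TPM in WT. Its groups overlapped almost fully (log2 difference -0.16, SE 0.16, limma adjusted p = 0.560). Jag1 lay between 36.28 and 75.22 TPM and Dll1 between 21.04 and 39.33 TPM, with log2 differences of -0.05 (SE 0.19) and -0.21 (SE 0.17).

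Of 4 genes for fringes and O-fucosyltransferases none passed the test. Pofut2, an O-fucosyltransferase that modifies thrombospondin repeats rather than the Notch EGF repeats, was the most abundant, at 36.53, 34.67, 40.88, 38.71 and 37.33 TPM in Lef1KI and 27.88, 28.46, 30.94 and 32.00 TPM in WT. Every Lef1KI library lay above every WT library, with a log2 difference of 0.33 (SE 0.10, limma adjusted p = 0.0827). After median centring that difference was 0.17. Pofut1, which places the O-fucose on Notch itself, lay between 7.87 and 14.15 TPM in Lef1KI and 10.73 and 19.20 TPM in WT (log2 difference -0.37, SE 0.21). Lfng, a fringe that extends that fucose and biases a receptor towards Delta ligands, had a log2 difference of -0.44 (SE 0.33), and Rfng of 0.26 (SE 0.15). Mib1 and Mib2 are ubiquitin ligases, Mib1 the one that drives ligand endocytosis. Mib1 measured 16.04, 18.58, 23.30, 23.26 and 24.28 TPM in Lef1KI and 12.08, 18.92, 21.73 and 19.03 TPM in WT (log2 difference 0.24, SE 0.19, limma adjusted p = 0.466), and the groups overlapped. Mib2 had a larger log2 difference of 0.71 (SE 0.24, limma adjusted p = 0.103). Its WT libraries lay between 7.54 and 15.77 TPM, and only Lef1KI A, at 13.54 TPM, lay among them.

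The gamma-secretase complex, which makes the last cut in the receptor, held both genes whose Lef1KI libraries all lay below WT. Here and in the next paragraphs Ncstn, Aph1a, Aph1b, Aph1c, Maml1 and Gli2 are given by library because of their values. Ncstn, the substrate-recognising subunit, measured 56.63, 46.59, 61.78, 51.59 and 59.77 TPM in Lef1KI and 67.78, 67.99, 75.63 and 65.69 TPM in WT. Every Lef1KI library lay below every WT library, with a log2 difference of -0.33 (SE 0.11, limma adjusted p = 0.103), which became -0.49 with an adjusted p of 0.0199 after median centring and -0.48 with an adjusted p of 0.0139 after trimmed-mean scaling. Aph1a, a scaffold subunit, measured 80.05, 78.92, 83.36, 89.34 and 86.72 TPM in Lef1KI and 89.90, 97.43, 99.52 and 96.14 TPM in WT. Its groups were also apart, by 0.56 TPM at the nearest pair, with a log2 difference of -0.19 (SE 0.09, limma adjusted p = 0.210), which became -0.35 in both rescaled fits (limma adjusted p = 0.0395 and 0.0307). Psenen, a small subunit needed for activity and the most abundant of the complex, measured 133.46, 111.53, 127.01, 116.64 and 123.96 TPM in Lef1KI and 148.91, 129.19, 118.38 and 119.75 TPM in WT, and the groups overlapped (log2 difference -0.07, SE 0.10). Psen2, a catalytic subunit, lay between 4.31 and 8.89 TPM (log2 difference 0.35, SE 0.21).

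Aph1b and Aph1c are near-identical scaffold genes, with 96.8% identity over 773 aligned coding bases, so reads can be split between them. Aph1b measured 4.0, 6.38, 5.75, 5.86 and 3.68 TPM in Lef1KI and 4.09, 3.32, 3.45 and 2.94 TPM in WT (log2 difference 0.45, SE 0.18). Aph1c measured 0.88, 0.91, 3.14, 0.73 and 1.40 TPM in Lef1KI and 2.78, 2.44, 2.15 and 1.76 TPM in WT (log2 difference -0.52, SE 0.24). It met the 3 SD rule of the deposited table only in WT, where it was higher. The 2 differences have opposite signs and neither passed the test (limma adjusted p = 0.161 and 0.220). Their sum, an added measure chosen after the values were seen, was 6.55 ± 1.66 TPM (SD, n = 5) in Lef1KI against 5.73 ± 0.890 TPM (SD, n = 4) in WT, with a log2 difference of 0.15 (two-sided exact permutation p = 0.444).

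Among the genes grouped as nuclear complex and Mastermind-like genes, Mamld1 was called and Rbpj was not. Mamld1, a Mastermind-like gene known from disorders of male genital development, measured 1.11, 1.49, 1.80, 1.68 and 1.13 TPM in Lef1KI and 0.91, 0.71, 0.51 and 0.84 TPM in WT. The levels are low in both groups but do not overlap, and it rose by a log2 difference of 0.48 (SE 0.13, limma adjusted p = 0.0404). The call held in 3 of 9 fits that left out 1 library each and was lost without Lef1KI B, C or D or WT B, D or E (0.42 to 0.51), and the difference was 0.32 (limma adjusted p = 0.210) after median centring. It was also lost with genes under 1 TPM in both groups removed (limma adjusted p = 0.0851), with a pseudocount of 0.1 (0.0524) and without the intensity trend (0.0515). Maml1, the best-studied Mastermind coactivator, measured 18.62, 19.75, 25.25, 20.90 and 22.29 TPM in Lef1KI and 14.16, 16.56, 18.49 and 17.37 TPM in WT. The groups were apart by 0.13 TPM at the nearest pair (log2 difference 0.34, SE 0.13, limma adjusted p = 0.158). Maml2 lay between 2.85 and 7.35 TPM and Maml3 between 1.60 and 2.69 TPM, with log2 differences of 0.16 (SE 0.22) and -0.05 (SE 0.14).

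Rbpj itself measured 25.79, 20.76, 38.44, 21.04 and 31.94 TPM in Lef1KI and 13.57, 17.66, 17.99 and 15.62 TPM in WT. All Lef1KI libraries lay above all WT libraries, with means of 27.6 ± 7.57 TPM (SD, n = 5) and 16.2 ± 2.05 TPM (SD, n = 4) and a log2 difference of 0.70 (SE 0.19, limma adjusted p = 0.0502). It passed when Lef1KI B or D was left out (0.79 and 0.79), with a pseudocount of 0.1, and with genes under 1 TPM in both groups removed. The copy on chromosome 6 went the other way, at 0.20, 7.09, 0.00, 0.00 and 0.18 TPM in Lef1KI and 15.94, 9.79, 16.57 and 31.33 TPM in WT (log2 difference -3.46, SE 0.59, limma adjusted p = 0.00513). Lef1KI B stood apart from the other 4 Lef1KI libraries at the copy, yet stayed below every WT library. The copy's row took 35.7% to 66.7% of the summed TPM of both rows in WT, 25.5% in Lef1KI B and at most 0.770% in the other Lef1KI libraries.

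The sum of both rows was 25.99, 27.85, 38.44, 21.04 and 32.12 TPM in Lef1KI and 29.51, 27.45, 34.56 and 46.95 TPM in WT. The groups overlapped, and the sum was lower rather than higher in Lef1KI by a log2 difference of -0.24 (two-sided exact permutation p = 0.317, with 0.0159 the smallest p that 5 against 4 libraries allow). TPM divides by length, and the annotated copy (1441 bases) is shorter than Rbpj-201 (5459 bases), so a read counts for more at the copy. With the copy weighted by these lengths, a measure added after the values were seen, the sum was 28.0 ± 7.19 TPM (SD, n = 5) in Lef1KI against 21.1 ± 2.66 TPM (SD, n = 4) in WT, a log2 difference of 0.37 (two-sided exact permutation p = 0.0952). The direction of the summed level thus turned with the weight given to the copy, and neither version passed the test on the deposited scale.

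**Figure D2:**
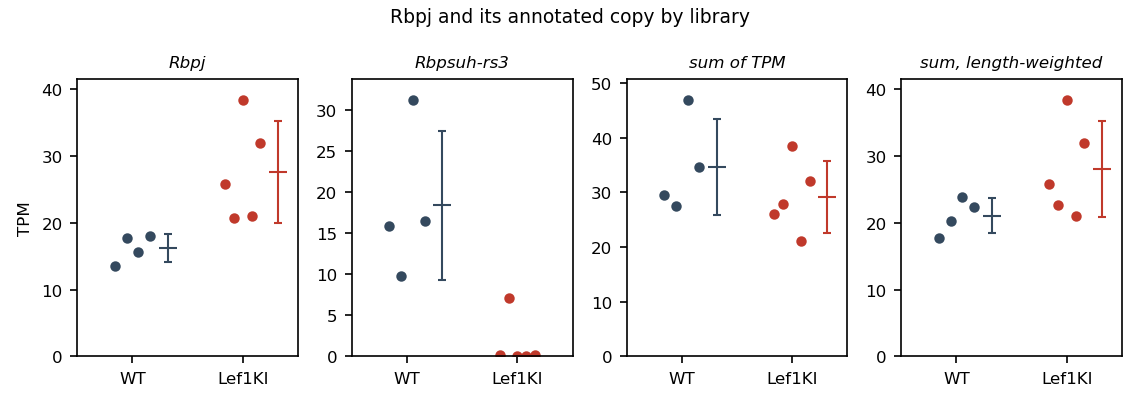
TPM of Rbpj, of its annotated copy Rbpsuh-rs3, of their sum and of their length-weighted sum in each library (points), with mean and SD beside them where no library is at 0. Rbpj is higher in all 5 Lef1KI libraries and the copy lower in all 5, while both sums overlap between the groups.

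Among the inhibitors and Deltex genes Dtx4 rose. Dtx4, one of the Deltex ubiquitin ligases that bind the Notch intracellular domain (chromosome 19 from 12466338 to 12501454, minus strand, mm10), measured 6.02, 5.24, 8.21, 10.66 and 4.81 TPM in Lef1KI and 4.48, 3.11, 3.19 and 2.26 TPM in WT. The lowest Lef1KI library, E, lay just above the highest WT library, A, and the log2 difference was 0.88 (SE 0.24, limma adjusted p = 0.0448). The call held in 3 of 9 fits that left out 1 library and was lost without Lef1KI B, C or D or WT B, D or E (0.73 to 0.96), and the difference was 0.72 (limma adjusted p = 0.104) after median centring. The other Deltex genes, Dtx2, Dtx3 and Dtx3l, did not pass, with log2 differences from -0.01 (SE 0.14) for Dtx2 to 0.31 (SE 0.15) for Dtx3. Numb, an endocytic adaptor that antagonises Notch and the most abundant of the group, measured 24.51, 23.18, 26.31, 21.64 and 24.80 TPM in Lef1KI and 22.60, 21.91, 21.73 and 22.58 TPM in WT (log2 difference 0.11, SE 0.11). Its relative Numbl had a log2 difference of 0.28 (SE 0.18).

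Hes1 and Nrarp, 2 commonly used targets of Notch, were not called on the deposited scale. Hes1, a repressor that Notch switches on in many tissues, measured 158.57, 200.48, 103.36, 241.79 and 138.92 TPM in Lef1KI and 190.07, 291.80, 341.28 and 287.70 TPM in WT. Lef1KI B and D lay above the lowest WT library, A, and the other 3 Lef1KI libraries below all of WT. Hes1 averaged 169 ± 53.9 TPM (SD, n = 5) in Lef1KI against 278 ± 63.3 TPM (SD, n = 4) in WT, a log2 difference of -0.75 (SE 0.24, limma adjusted p = 0.0921). It passed at -0.90 after median centring (limma adjusted p = 0.0489) and not after trimmed-mean scaling (-0.90, limma adjusted p = 0.0604), and it also passed when Lef1KI D (-0.89) or WT A (-0.92) was left out. Hes6, a relative that antagonises Hes1, lay between 9.54 and 21.55 TPM (log2 difference -0.22, SE 0.23). Nrarp, a Notch target whose product destabilises the Notch intracellular domain and stabilises Lef1, measured 15.30, 16.21, 15.82, 19.88 and 16.28 TPM in Lef1KI and 9.51, 16.58, 27.30 and 23.81 TPM in WT. The WT libraries spread on both sides of the narrow Lef1KI range, and the log2 difference was -0.11 (SE 0.26, limma adjusted p = 0.822).

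**Figure D3:**
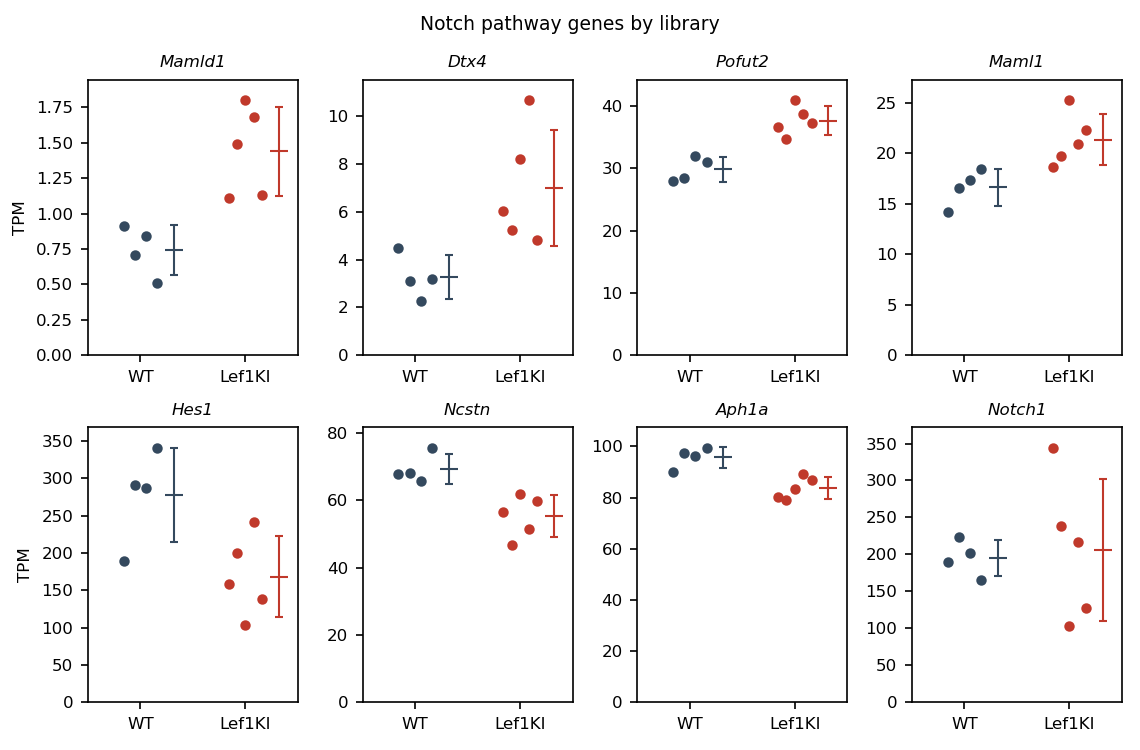
TPM of 8 Notch pathway genes in each library (points), with mean and SD beside them, for WT (n = 4) and Lef1KI (n = 5). Mamld1, Dtx4, Pofut2 and Maml1 are higher and Ncstn and Aph1a lower in every Lef1KI library, Hes1 overlaps through WT A, and Notch1 spreads more in Lef1KI than in WT.

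None of the Hedgehog genes passed the test, and Gli1 and Hhip, 2 of its targets, were under 1 TPM in every library. Of the genes for ligand maturation and release, Disp1, which releases the lipid-linked ligand, measured 4.20, 3.38, 5.25, 6.73 and 4.15 TPM in Lef1KI and 1.79, 3.71, 2.70 and 3.52 TPM in WT. Only Lef1KI B lay inside the WT range (log2 difference 0.55, SE 0.21, limma adjusted p = 0.148). Hhat, which attaches palmitate to the ligand, lay between 0.84 and 2.06 TPM (log2 difference -0.29, SE 0.15). The receptor Ptch1, itself a target of the pathway, measured 5.99, 7.32, 9.01, 7.66 and 8.64 TPM in Lef1KI and 4.88, 6.87, 7.77 and 6.96 TPM in WT, and overlapped (log2 difference 0.20, SE 0.17, limma adjusted p = 0.494).

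Boc, Cdon and Gas1 are co-receptors that hold the ligand for Ptch1, and none passed the test. Boc, the most abundant, measured 26.95, 23.17, 15.91, 30.51 and 12.08 TPM in Lef1KI and 14.93, 18.39, 18.23 and 17.77 TPM in WT. Lef1KI E lay below the WT range, Lef1KI C inside it and the other 3 above it, for a log2 difference of 0.24 (SE 0.24, limma adjusted p = 0.562). Cdon, its relative, lay between 1.74 and 3.53 TPM in Lef1KI, and its log2 difference was 0.47 (SE 0.18, limma adjusted p = 0.147). Gas1 lay between 3.71 and 10.11 TPM (log2 difference -0.27, SE 0.23). Hhip, a decoy that Gli factors induce, was at 0.12, 0.29, 0.93, 0.09 and 0.37 TPM in Lef1KI and 0.10, 0.06, 0.12 and 0.13 TPM in WT, under 1 TPM in every library and highest in Lef1KI C (log2 difference 0.27, SE 0.15, limma adjusted p = 0.295).

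Spop, a substrate adaptor for Gli degradation, was the most abundant of the signal-passing genes at 76.71, 70.39, 65.53, 76.49 and 75.79 TPM in Lef1KI and 59.93, 76.23, 78.15 and 77.97 TPM in WT, with the WT range holding all Lef1KI libraries (log2 difference 0.00, SE 0.11). Smo, the transducer that Ptch1 holds back, lay between 19.72 and 42.55 TPM (log2 difference 0.25, SE 0.19). Sufu, which restrains the Gli factors, and Kif7, a kinesin of the cilium, both had log2 differences of 0.36 (SE 0.15 and 0.14), with adjusted p values of 0.173 and 0.150 in limma. Gpr161, a ciliary receptor that opposes the pathway, had a log2 difference of -0.23 (SE 0.24).

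The Gli factors differed in level and in spread. Gli1, the most direct readout of the pathway, was at 0.12, 0.11, 0.27, 0.30 and 0.31 TPM in Lef1KI and 0.11, 0.10, 0.11 and 0.14 TPM in WT. Lef1KI C, D and E lay above all WT libraries and Lef1KI A and B among them, all near 0, and the log2 difference was 0.13 (SE 0.08, limma adjusted p = 0.339). Gli2, the main activator, measured 1.48, 3.47, 2.56, 2.83 and 1.70 TPM in Lef1KI and 0.31, 1.13, 1.61 and 0.79 TPM in WT. Only Lef1KI A lay below the highest WT library, D, and the log2 difference of 0.81 (SE 0.23, limma adjusted p = 0.0548) passed the test when Lef1KI A or WT D was left out (0.91 and 0.96). Gli3, mainly a repressor, was the most abundant at 2.77, 3.79, 4.67, 3.96 and 3.28 TPM in Lef1KI and 3.25, 3.94, 3.88 and 3.40 TPM in WT (log2 difference 0.01, SE 0.15), and the groups overlapped. From the values, the deposited table holds genes whose mean is at least 3 SD in at least 1 group. Of the 48 genes 44 met this in both groups. Aph1c met it only in WT and Gli2 only in Lef1KI, each in the group where it was higher. Hhip and Gli1 met it only in WT, where they were lower.

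Genes outside the symbol rule but of the same pathways were taken from 2 further lists. Of 43 other Notch genes 4 rose (9.30%) and 1 fell (2.33%), with a median difference of 0.25. Of 60 other Hedgehog genes 6 rose (10.0%) and none fell, with a median of 0.17. Over all genes 6.73% rose, 1.24% fell and the median was 0.14. Under each rescaling the 11 calls became 8. Among the called genes, Mfap2 and Gpc3 met the 3 SD rule of the deposited table only in Lef1KI, where they were higher. Tspan33 met it only in WT, where it was higher. The place of these genes in the counts rests in part on that filter. The Notch genes that rose were Nov, Mfap2, Tle4 and Adam17. Nov, a matricellular protein reported to bind Notch1, measured 6.34, 5.97, 12.10, 7.45 and 6.25 TPM in Lef1KI and 1.88, 1.10, 2.38 and 1.85 TPM in WT (log2 difference 1.60, SE 0.22, limma adjusted p = 0.00181). Mfap2, a microfibril protein that can interact with Jagged ligands, measured 3.39, 2.26, 2.65, 2.31 and 2.33 TPM in Lef1KI and 0.21, 1.43, 0.96 and 0.63 TPM in WT, and rose by 1.03 (SE 0.19, limma adjusted p = 0.00834). Tle4, a Groucho co-repressor that also binds Lef/Tcf factors, measured 2.17, 3.35, 5.13, 4.14 and 2.88 TPM in Lef1KI and 1.17, 1.44, 1.73 and 1.01 TPM in WT, and rose by 0.93 (SE 0.19, limma adjusted p = 0.0147). The groups of these 3 genes, chosen for their small p, did not overlap. Tspan33, a tetraspanin partner of Adam10, measured 0.10, 0.00, 0.20, 0.08 and 0.14 TPM in Lef1KI and 0.21, 0.43, 0.48 and 0.41 TPM in WT, all near 0, and fell by 0.32 (SE 0.09, limma adjusted p = 0.0469). The calls of Adam17 and Tspan33 each held in 1 of 9 fits that left out 1 library, and that of Adam17 was lost under both rescalings.

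Of the 6 Hedgehog genes that rose, 4 are on the list as targets, Foxf1, Foxf2, Igf2 and Igfbp3. Foxf1, a forkhead factor of lung mesenchyme, measured 5.99, 3.83, 8.90, 5.70 and 4.69 TPM in Lef1KI and 0.99, 1.21, 1.56 and 0.93 TPM in WT (log2 difference 1.62, SE 0.20, limma adjusted p = 0.00120). Igf2, a growth factor, measured 17.28, 19.76, 26.15, 21.03 and 16.15 TPM in Lef1KI and 9.49, 5.35, 7.02 and 4.20 TPM in WT (log2 difference 1.52, SE 0.22, limma adjusted p = 0.00246). Foxf2, the relative of Foxf1, measured 2.34, 1.35, 2.62, 1.75 and 1.56 TPM in Lef1KI and 0.52, 0.68, 0.73 and 0.56 TPM in WT, and rose by 0.83 (SE 0.14, limma adjusted p = 0.00507). These 3 were chosen for their small p, so that their groups lie apart follows from the choice. The other 3, named after their values were seen, were the glypican Gpc3 (log2 difference 2.0), Igfbp3 (1.36) and the ciliary transport gene Ift27 (0.69). The calls of these 3 held with 1 library left out in 5, 3 and 3 of 9 fits, and those of Igfbp3 and Ift27 were lost under both rescalings. The summed fibroblast markers were likewise higher in every Lef1KI library than in every WT library (1706 to 4639 against 430.1 to 1212 TPM), and their part in these differences was not tested.

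**Figure D4:**
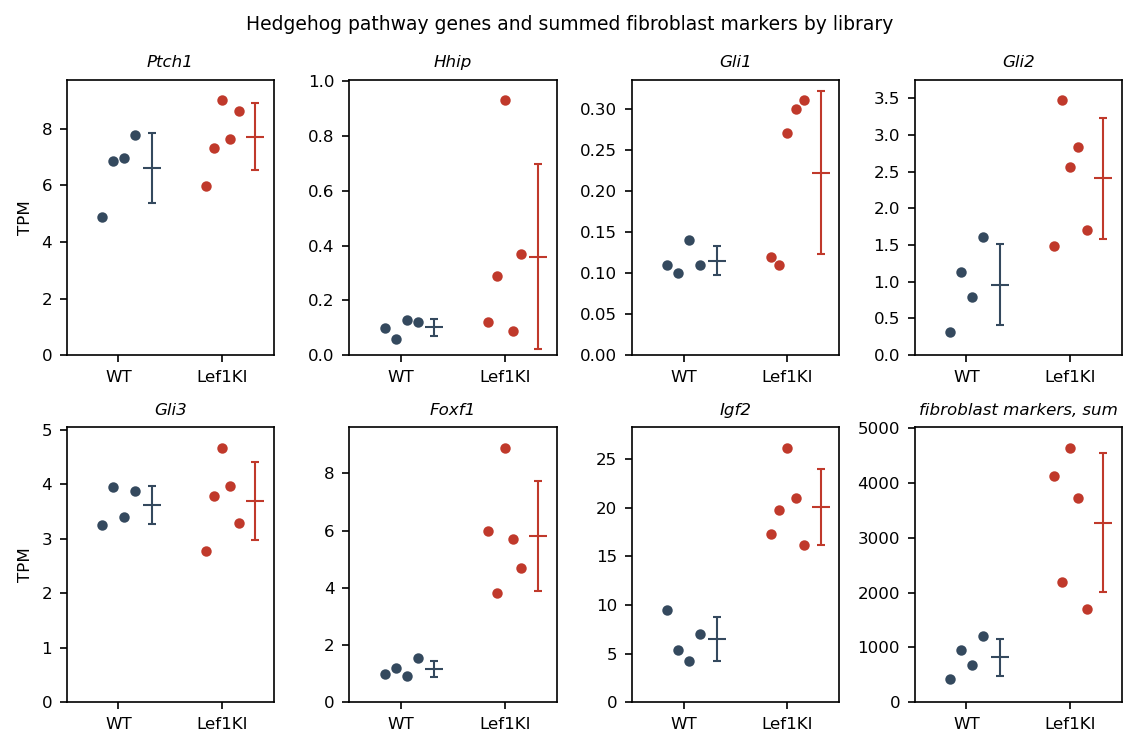
TPM of Hedgehog pathway genes and the summed TPM of 18 fibroblast markers in each library (points), with mean and SD beside them, for WT (n = 4) and Lef1KI (n = 5). Foxf1, Igf2 and the marker sum separate the groups, while Ptch1, Hhip, Gli1, Gli2 and Gli3 overlap.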

How the data were processed

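Sorted RNA of 5 Lef1KI and 4 WT libraries was sequenced from stranded mRNA libraries. The authors quantified reads with RSEM on mm10, per the submitters' processing notes. Its version, the aligner and the annotation are not given in the sources used. Deposited values are log2(TPM + 1) for 13336 genes in 9 columns, and for 100.0% of values under 50 TPM they returned whole hundredths of a TPM (tolerance 0.01 of a hundredth). TPM keeps no read depth, so the error used is the spread between libraries, each a pool of mice. Columns carry letters that the labels do not tie to replicate numbers. No 2 libraries were duplicates (at most 71 equal non-zero values in any pair).

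Lef1KI and WT were compared with limma 3.58.1 (R 4.3.3) with an intensity trend on all genes, two-sided, tested on simulated data. A count model was not used. Summed rows were compared by exact permutation in scipy 1.17.1. Same-lettered libraries were checked for pairing, and their deviations correlated at -0.26 to 0.26, so the letters were not used as pairs. The genes and lists were chosen with earlier results of these data known. Library values were given for called genes, Lef1, Rbpj and its copy, the most abundant gene of each role, Hes1, Nrarp, Gli1, Ptch1 and Hhip (the rule also held Hey1 and Heyl, not analysed here), and up to 3 genes per direction from each other list by adjusted p. Genes added after their values were seen are Notch3, Ncstn, Aph1a, Aph1b, Aph1c, Maml1 and Gli2. Alternatives were median centring, trimmed-mean scaling, a filter at 1 TPM, a pseudocount of 0.1, no intensity trend, each library left out, and a block on the letters. The value of 1 of the 48 genes is not reported here, though it is counted.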

Additional observations from a re-analysis of the deposited data

Results flagged for a closer look

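Single libraries that stood apart from the rest of their group were sought by the gap to the nearest library over the group's whole range, on the log2 scale, for the genes named here. Chance alone flags about 1 in 20 groups, and 6 of 112 groups were flagged. At the copy of Rbpj, Lef1KI B measured 7.09 TPM against 0.00 to 0.20 TPM in the other Lef1KI libraries. Nrarp measured 19.88 TPM in Lef1KI D against 15.30 to 16.28 TPM in the other Lef1KI libraries. WT D was high at Psen2 (6.03 TPM, others 4.31 to 4.47 TPM) and at Hhat (2.06 TPM, others 1.57 to 1.60 TPM). WT A was low at Boc (14.93 TPM, others 17.77 to 18.39 TPM) and at Spop (59.93 TPM, others 76.23 to 78.15 TPM). None of these genes but the copy was called.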

How the results depend on the processing

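The 2 Notch calls (2 higher, 0 lower) became 0 higher and 3 lower after median centring, 0 higher and 2 lower after trimmed-mean scaling, 1 without the intensity trend, 0 in the fit with a replicate block on the shared letters (a paired fit that lacks Lef1KI C), and 0 to 3 (0 to 3 higher, 0 to 1 lower) with 1 library left out. Hedgehog calls went from 0 to 1 with the replicate block (Gli2) and 0 to 3 with 1 library left out (Gli2, Kif7 and Hhat without Lef1KI A, Gli2 without WT D). Calls among the other pathway genes went from 11 to 5 with the replicate block and 5 to 14 with 1 library left out. Calls over all genes moved as well, from 1063 to 486 with the replicate block. With 1 library left out they were 628 (without WT E) to 1686 (without Lef1KI A). Lef1 kept its call in every fit (7.10 to 7.39 with 1 library left out). The summed Rbpj level (-0.24) was -0.40 (exact permutation p = 0.0476) after trimmed-mean scaling, 0.37 when weighted by length, and -0.35 to -0.09 with 1 library left out. Other signs that turned belonged to small differences, none of them called. After median centring these were Notch2 (-0.14), Numb (-0.05), Dtx3l (-0.06), Gli1 (-0.03), Gli3 (-0.15) and the Aph1b plus Aph1c sum (-0.01). After trimmed-mean scaling they were Notch2 (-0.13), Numb (-0.04), Dtx3l (-0.05) and Gli3 (-0.11), and with the replicate block Notch1 (0.17), Notch2 (-0.01), Dtx2 (0.05), Dtx3l (-0.12) and Gli3 (-0.06). With 1 library left out Notch1 ranged from -0.26 to 0.17, Notch2 from -0.06 to 0.11, Jag1 from -0.17 to 0.09, Maml3 from -0.15 to 0.02, Nrarp from -0.39 to 0.09, Dtx2 from -0.06 to 0.05, Dtx3l from -0.12 to 0.34 and Gli3 from -0.06 to 0.09. The cause of each change was not tested, and depth is unknown.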
